A study of Mus musculus with 6 samples.

Results

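Activin A is a secreted dimer of Inhba chains, and the genes described here are those that make it, receive it and trap it. They are the activin subunit genes Inhba and Inhbb, the receptor genes Acvr1, Acvr1b, Acvr2a and Acvr2b, and the follistatin genes Fst and Fstl3, which is 8 of the 57180 genes in the deposited table. The 8 genes were picked by name, and the family was chosen from earlier results of this same comparison, in which the increase of Inhba was known. Their values between the 2 groups are therefore given as a description. No p-value is printed for them, and where the fit over all genes calls a member, the call is only counted and supports nothing. RNA was sequenced from bone marrow-derived macrophages of wild-type mice aged 6 to 8 weeks, which had grown over 7 days with M-CSF at 20 ng/mL. One group of 3 libraries came from cells given IL-4 together with CGRP, a peptide of sensory nerves, for 24 h. The other group of 3 libraries came from cells given IL-4 alone (20 ng/mL) for the same time. All cells thus carried M-CSF and IL-4, and no culture without IL-4 was sequenced. The labels do not say whether replicates were separate cultures or animals, so errors and p-values measure the spread between these libraries, which may be technical.

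Activins bind a type II receptor, Acvr2a or Acvr2b, which then phosphorylates a type I receptor, chiefly Acvr1b (ALK4). The type I receptor activates SMAD2 and SMAD3, which enter the nucleus with SMAD4. Follistatins bind activins outside the cell and block receptor binding. Macrophages are among the sources of activin A in inflamed and healing tissue, and activin A acts back on macrophages and on fibroblasts.

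Inhba had the largest fold change of the 6 members that were tested, and its promoter is shown here beside that of its sister subunit gene Inhbb, which stayed scarce. The sequences are from RefSeq, build GRCm38.p6, and run from 250 bases before to 50 bases after the annotated start, 5′ to 3′ on the gene's strand. Inhba lies at chr13:16011601-16011900 (plus strand) and Inhbb at chr1:119422199-119422498 (minus strand). Capitals mark the one match to TATAAA, the core of the TATA box.
Inhba: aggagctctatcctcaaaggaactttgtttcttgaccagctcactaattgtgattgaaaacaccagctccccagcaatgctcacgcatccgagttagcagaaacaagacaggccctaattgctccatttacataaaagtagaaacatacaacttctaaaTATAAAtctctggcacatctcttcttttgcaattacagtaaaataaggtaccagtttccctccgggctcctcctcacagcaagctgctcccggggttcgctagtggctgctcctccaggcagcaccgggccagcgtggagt
Inhbb: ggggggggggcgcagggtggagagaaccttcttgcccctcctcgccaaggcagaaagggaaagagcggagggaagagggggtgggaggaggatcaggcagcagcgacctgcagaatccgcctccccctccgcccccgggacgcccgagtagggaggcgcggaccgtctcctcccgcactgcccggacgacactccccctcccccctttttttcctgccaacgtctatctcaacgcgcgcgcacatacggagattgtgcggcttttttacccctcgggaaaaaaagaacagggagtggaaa

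The Inhba window had a GC content of 47.7% and 7 CpG dinucleotides, and its TATAAA began 91 bases before the annotated start. The Inhbb window had a GC content of 64.3%, 23 CpG dinucleotides and no such match. Of the 8 genes 7 were in the promoter table (Fst was not), and the 4 receptor genes had GC contents of 73.3% to 83.7%, against a median of 53.0% over 32544 distinct promoter windows. Inhba thus had the lowest GC content of the 7. Both strands were searched for the cAMP response element TGACGTCA and its half-site TGACG, the AP-1 site TGANTCA and the STAT6 site (TTC and GAA held 4 bases apart). None of these was in any of the 7 windows. They occur in 1.80%, 20.9%, 7.79% and 6.98% of all windows. The sequence CAGAC, part of a SMAD-binding box, was in the windows of Acvr2a, Acvr2b and Fstl3 and not in those of Inhba and Inhbb, against 49.5% of all windows. TATAAA was in 13.6% of all windows, and on its reverse strand also in that of Fstl3. The search says only whether these letters stood in this window.

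Each library held between 20088895 and 24060444 counts. IL-4+CGRP replicate 2 stood apart. Its score on principal component 1, which carried 37.6% of the variance, was -0.169, with 22 and 27 for replicates 1 and 3 of its group and -26 to -11.2 for the IL-4 libraries. Its highest correlation with a library of its own group was 0.9876, and 0.9882 with an IL-4 library. Macrophage markers such as Csf1r and Adgre1 were abundant in every library, their 8 genes summing to 13839 to 14106 CPM in IL-4+CGRP libraries and 13625 to 13852 CPM in IL-4 libraries. Of the 8, Cd14 (1.53-fold) and Itgam (1.33-fold) were called higher by edgeR, and 5 had an unadjusted p under 0.05. Over all tested genes 2.32% were called higher. Counts at an unadjusted p, here and below, come without the share of all tested genes at that threshold. Nothing is read from them. CPM is counts scaled to a common library total after correction for library composition (TMM).

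Of the subunit genes, Inhba (ENSMUSG00000041324), which encodes the beta A chain, had 522, 462 and 489 counts in IL-4+CGRP replicates 1 to 3. It had 89.5, 98.0 and 118 counts in IL-4 replicates 1 to 3. On the CPM scale these were 21.5, 21.2 and 22.0 in IL-4+CGRP libraries, against 4.55, 4.60 and 4.92 in IL-4 libraries. Every IL-4+CGRP library was high, and the groups were far apart: the lowest IL-4+CGRP library was 4.31 times the highest IL-4 library. Means were 21.6 ± 0.411 CPM with IL-4+CGRP and 4.69 ± 0.200 CPM with IL-4 (SD, n = 3 each). The log2 fold change was 2.20 ± 0.10 (SE), or 4.59-fold with a 95% interval of 3.98 to 5.30. By fold change Inhba ranked 23 among the 13260 genes tested. The spread between libraries was small, with a coefficient of variation of 1.90% in IL-4+CGRP and 4.26% in IL-4, while counting error alone would give 4.51% and 9.93%. IL-4+CGRP replicate 2, the library that stood apart over all genes, did not stand apart for Inhba.

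**Figure D1:**
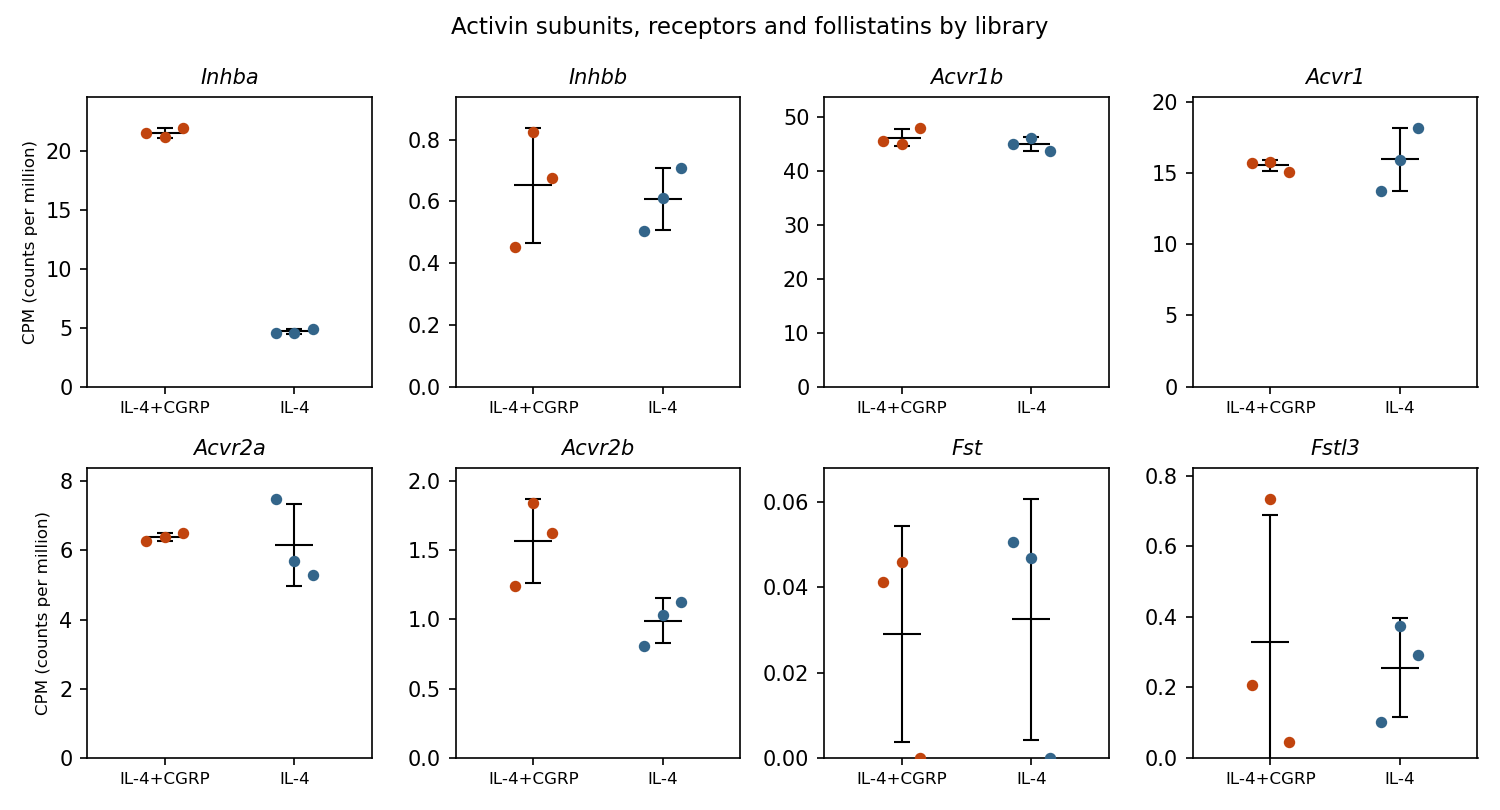
CPM of the 8 activin genes, with 1 panel a gene and separate vertical axes from 0; points are libraries (IL-4+CGRP left, IL-4 right), the long dash is the mean and bars are SD (n = 3), drawn down to 0 at most. Inhba sits between 21.2 and 22.0 CPM with IL-4+CGRP and between 4.55 and 4.92 CPM with IL-4, the other gene with separate groups is Acvr2b, and Fst rests on single counts.

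Inhbb, which encodes the beta B chain of activin B and activin AB, was scarce in all libraries. It had 11, 18 and 15 counts with IL-4+CGRP and 10, 13 and 17 counts with IL-4. The groups overlapped throughout. Means were 0.652 ± 0.187 CPM and 0.608 ± 0.101 CPM (IL-4+CGRP and IL-4; SD, n = 3 each). The log2 fold change was 0.08 ± 0.36 (SE), and its 95% interval of -0.70 to 0.86 leaves room for a change of either sign at this depth. Of the reads on both subunit genes, Inhba took 97.9%, 96.3% and 97.0% in IL-4+CGRP replicates 1 to 3. It took 90.0%, 88.3% and 87.4% in IL-4 replicates 1 to 3. The exact 95% binomial intervals ran from 94.1% to 99.0% over the IL-4+CGRP libraries and from 80.6% to 95.1% over the IL-4 libraries, and cover counting error only. Per length the gap was wider, with 32.7 TPM for Inhba and 0.352 TPM for Inhbb with IL-4+CGRP, and 6.80 TPM and 0.318 TPM with IL-4 (TPM divides counts by gene length and brings every library to one total).

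The genome annotation used here (GENCODE release M21, build GRCm38) has 2 genes on the opposite strand that overlap Inhba. Gm48444 had 0 counts in all 6 libraries. B230303A05Rik had 0.87 of a count in IL-4+CGRP replicate 1 and 0 in the others. No source used here says whether the counting used strand, so reads of an antisense partner could be counted with the gene. Gm17409, Gm47320, Gm47040 and Mir6962, which overlap Acvr1, Acvr2b, Fst and Acvr1b, were at 0 in all libraries. Orc4, a replication gene whose end overlaps Acvr2a, was expressed at 19.2 ± 0.796 CPM with IL-4+CGRP and 19.5 ± 3.10 CPM with IL-4 (SD, n = 3 each), so reads near the end of Acvr2a are uncertain.

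Among the type I receptors, Acvr1b (ENSMUSG00000000532), the main activin type I receptor, was the more abundant per length, as the order of levels shows. It measured 45.6, 45.0 and 48.0 CPM in IL-4+CGRP libraries and 44.9, 46.2 and 43.6 CPM in IL-4 libraries. The groups overlapped. The log2 fold change was 0.04 ± 0.06 (SE), with a 95% interval of -0.09 to 0.17, the narrowest interval in the family. Acvr1 (ALK2), a type I receptor of bone morphogenetic proteins that activin A can also occupy, measured 15.7, 15.8 and 15.1 CPM with IL-4+CGRP. It measured 13.8, 15.9 and 18.2 CPM with IL-4, so the IL-4 libraries spanned the IL-4+CGRP libraries. Its log2 fold change was -0.04 ± 0.11 (SE), with a 95% interval of -0.27 to 0.19. The third activin type I receptor gene, Acvr1c (ALK7), had 0 counts in 5 libraries and 3 counts in IL-4 replicate 2.

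Among the type II receptors, which bind the ligand first, Acvr2a (ENSMUSG00000052155) measured 6.27, 6.38 and 6.49 CPM with IL-4+CGRP and 7.49, 5.68 and 5.30 CPM with IL-4. The highest library and the lowest were both IL-4 libraries. Its log2 fold change was 0.06 ± 0.14 (SE), with a 95% interval of -0.26 to 0.37. Acvr2b (ENSMUSG00000061393) had 30, 40 and 36 counts with IL-4+CGRP, against 16, 22 and 27 counts with IL-4. On the CPM scale these were 1.24, 1.84 and 1.62, against 0.810, 1.03 and 1.13. The groups did not overlap, but the gap between the nearest libraries was small. The log2 fold change was 0.65 ± 0.28 (SE), with a 95% interval of 0.04 to 1.25 before any adjustment for the number of genes, and it was not called in the fit over all genes. It rested on 106 counts in the IL-4+CGRP group and 65 in the IL-4 group.

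The follistatins were at or near the limit of detection. Fst (ENSMUSG00000021765), the main activin antagonist, had 1, 1 and 0 counts with IL-4+CGRP and 1, 1 and 0 counts with IL-4. A sum of 2 counts in each group has an exact 95% Poisson interval of 0.242 to 7.22 counts, for counting error only. Fstl3 (ENSMUSG00000020325), a secreted relative that also binds activins, had 4.85, 15.7 and 1.30 counts with IL-4+CGRP and 2.40, 8.00 and 7.18 counts with IL-4. The IL-4+CGRP libraries held both the highest and the lowest value. Both genes were below the count filter and were not tested, and a small difference could not be seen at this depth. Prss57, which overlaps Fstl3 on the other strand, had 0.129 ± 0.0804 CPM with IL-4+CGRP and 0.185 ± 0.162 CPM with IL-4 (SD, n = 3 each), so its reads cannot be told from the few of Fstl3.

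To compare levels between genes, values were divided by the deposited gene length and scaled to TPM. With IL-4+CGRP the order was Inhba (32.7 ± 2.00 TPM), Acvr1b (24.2 ± 1.74), Acvr1 (15.0 ± 0.585), Acvr2a (2.59 ± 0.121), Acvr2b (1.72 ± 0.276), Fstl3 (0.375 ± 0.387), Inhbb (0.352 ± 0.0885) and Fst (0.0358 ± 0.0310), as TPM with SD over 3 libraries. With IL-4 it was Acvr1b (22.6 ± 0.842 TPM), Acvr1 (14.8 ± 2.43), Inhba (6.80 ± 0.466), Acvr2a (2.40 ± 0.377), Acvr2b (1.05 ± 0.200), Inhbb (0.318 ± 0.0612), Fstl3 (0.304 ± 0.154) and Fst (0.0385 ± 0.0334). Inhba was the highest of the 8 with IL-4+CGRP and the third with IL-4, and the 4 receptor genes kept their order. Only Fstl3 and Inhbb, neighbours in both orders, had library ranges that overlapped. The Inhba level lay above that of 66.5% of tested genes with IL-4+CGRP and 33.9% with IL-4. The combined level of the type II receptors was 4.03, 4.39 and 4.54 TPM in IL-4+CGRP libraries and 3.66, 3.36 and 3.34 TPM in IL-4 libraries. Inhba stood at 6.93 to 8.31 times that sum with IL-4+CGRP and at 1.74 to 2.19 times with IL-4.

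**Figure D2:**
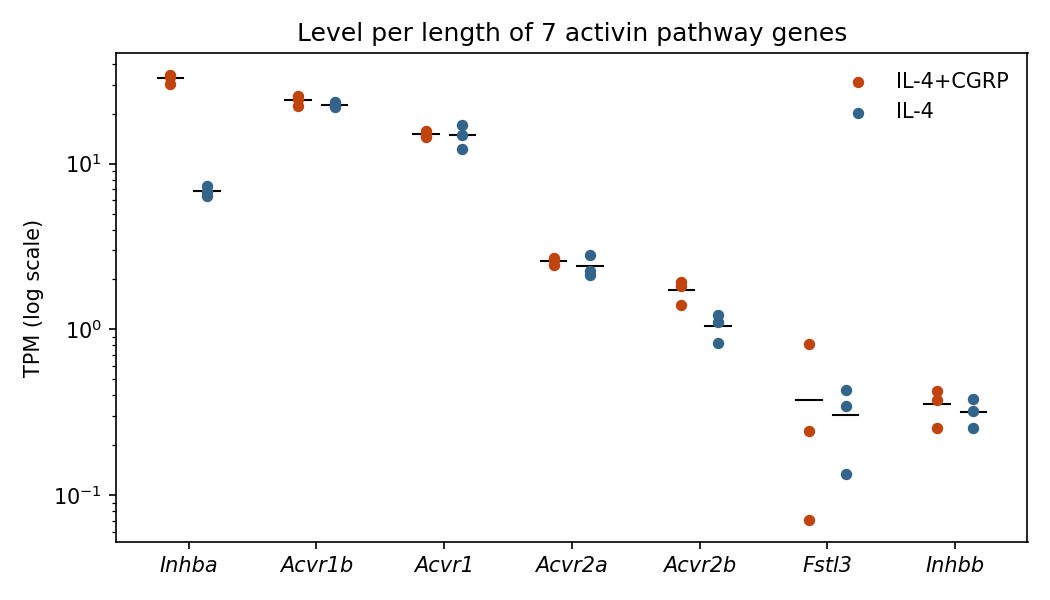
Level per length (TPM, log axis) of 7 of the 8 activin genes; points are libraries (IL-4+CGRP left, IL-4 right) and dashes are group means (n = 3), and Fst is left out because 1 library in each group is at 0. Inhba is the top gene with IL-4+CGRP (32.7 TPM) and lies under Acvr1b and Acvr1 with IL-4 (6.80 TPM), while the receptors keep their order in both groups.

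In the edgeR quasi-likelihood fit over all 13260 tested genes, 1 of the 6 members tested was called, which was Inhba, in the higher direction. The background is 3.85% of all tested genes called, 2.32% as higher and 1.54% as lower, at an adjusted p under 0.05. Groups that do not overlap were found for 2 of the 6 members, Inhba and Acvr2b, against 21.0% of all tested genes. Because the family was chosen with this comparison known, nothing is read from these shares. The median log2 fold change of the 6 tested members was 0.07, and that of all tested genes was 0.00.

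**Figure D3:**
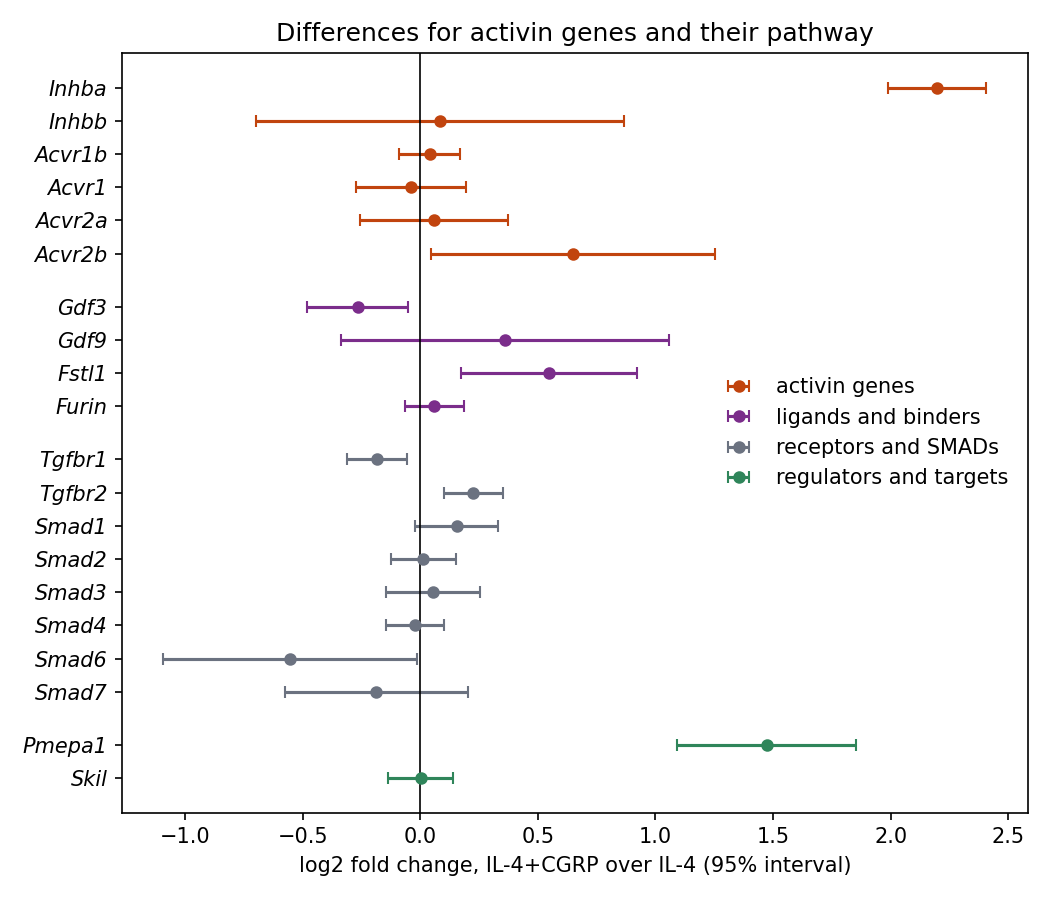
Log2 fold changes of IL-4+CGRP over IL-4 with 95% intervals (not adjusted for the number of genes) for the 6 tested activin genes, other ligands and binders, receptors and SMADs, and regulators and targets; n = 3 libraries a group. Inhba (2.20) and the SMAD-induced gene Pmepa1 (1.47) are the farthest from 0, and the intervals of Smad2, Smad3, Smad4 and Smad7 span 0. Those of Acvr2b, Gdf3, Fstl1, Tgfbr1, Tgfbr2 and Smad6 do not, but these genes did not pass the adjusted test.

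The genes around the family were read from lists of ligands, receptors, extracellular binders and convertases, SMADs, SMAD regulators and SMAD2/3 target genes. They were chosen with earlier results of these data known, so their calls and p-values are a description only. Of 57 tested genes in these lists, counted once each, 2 were called higher and 0 lower, which is 3.51%, near the 3.85% of all tested genes. Their median log2 fold change was 0.01. Of the 6 other ligand genes tested, 0 were called by edgeR, DESeq2 or limma-voom, and 1 had an unadjusted p under 0.05. The ligand Gdf3, a relative that uses activin receptors, had a log2 fold change of -0.27 ± 0.10 (SE; edgeR adjusted p = 0.196), and Gdf9 one of 0.36 ± 0.32 (SE; edgeR adjusted p = 0.638). Inha, the chain that turns activins into inhibins, had 1 count in 1 IL-4+CGRP library and 0 elsewhere.

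Of 10 other receptor genes tested, 0 were called by edgeR, DESeq2 or limma-voom, and 2 had an unadjusted p under 0.05 in edgeR. Tgfbr2, the type II receptor of TGF-beta, measured 302, 269 and 303.5 CPM with IL-4+CGRP and 238, 258 and 252 CPM with IL-4. The groups did not overlap, with a log2 fold change of 0.23 ± 0.06 (SE; edgeR adjusted p = 0.0565). Tgfbr1, its type I partner, measured 106, 96.1 and 108 CPM with IL-4+CGRP and 118, 116 and 120 CPM with IL-4, a log2 fold change of -0.18 ± 0.06 (SE; edgeR adjusted p = 0.133). Of the 3 binders and convertases tested, 0 were called by the same 3 tools, and 1 had an unadjusted p under 0.05 in edgeR. Furin, a convertase that cleaves activin precursors, had a log2 fold change of 0.06 ± 0.06 (SE; edgeR adjusted p = 0.672). Fstl1, a secreted glycoprotein named for its follistatin-like domain, measured 4.69 ± 0.757 CPM with IL-4+CGRP and 3.19 ± 0.356 CPM with IL-4 (SD, n = 3 each; edgeR adjusted p = 0.122).

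None of the 7 SMAD genes tested was called in the edgeR fit, and none in any alternative fit, DESeq2 and limma-voom included. In edgeR 1 of them, Smad6, had an unadjusted p under 0.05. Smad2 and Smad3, which activin receptors phosphorylate, had log2 fold changes of 0.01 ± 0.06 and 0.05 ± 0.09 (SE; edgeR adjusted p = 0.948 and 0.823). Smad4, their shared partner, had one of -0.02 ± 0.06 (SE; edgeR adjusted p = 0.891). The inhibitory Smad6 and Smad7 had log2 fold changes of -0.55 ± 0.25 and -0.19 ± 0.18 (SE; edgeR adjusted p = 0.307 and 0.667). Smad1, which carries bone morphogenetic protein signals, had one of 0.15 ± 0.08 (SE; edgeR adjusted p = 0.391). RNA levels do not show phosphorylation, through which SMADs are activated.

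Pmepa1, a membrane protein that SMADs induce and that in turn holds back SMAD2 and SMAD3, was the one gene called by edgeR among 20 SMAD regulators tested. DESeq2 called 2 of the 20 and limma-voom 1, and 5 had an unadjusted p under 0.05 in edgeR. The second gene called by DESeq2 was Wwp1, a ubiquitin ligase (1.21-fold, edgeR adjusted p = 0.0592). Wwp1 and the SMAD corepressor gene Ski (1.17-fold, edgeR adjusted p = 0.0515) were each called in 5 of the 15 alternative fits. Pmepa1 measured 5.03, 4.04 and 4.78 CPM with IL-4+CGRP, against 1.72, 1.64 and 1.63 CPM with IL-4. Every IL-4+CGRP library was above every IL-4 library. It rose 2.78-fold, a log2 fold change of 1.47 ± 0.17 (SE; edgeR adjusted p = 5.6e-04). Its lists were chosen with earlier results of these data known, so the call is a description. Of 16 SMAD2/3 target genes tested, edgeR called 2 higher, Pmepa1 among them, and 0 lower, with a median log2 fold change of 0.00. Over all tested genes 2.32% were called higher and 1.54% lower. DESeq2 and limma-voom also called 2 of the 16, and 8 had an unadjusted p under 0.05 in edgeR. The share of all tested genes at that unadjusted threshold was not counted, so the 8 have no background beside them. The 14 other targets were not called. Among them the groups did not overlap for Ccn2, Col1a1 and Ski, with log2 fold changes of 0.46, 0.23 and 0.22. Nor did they for Tgfbi and Tgif1, both at -0.18. Over all tested genes 21.0% had groups that do not overlap, so nothing is read from these 5. Skil, the flattest of the 16, measured 81.8 ± 6.41 CPM with IL-4+CGRP and 81.8 ± 2.67 CPM with IL-4 (SD, n = 3 each), with an edgeR adjusted p of 0.994. Smad7, itself an early target, measured 2.90 ± 0.354 CPM with IL-4+CGRP and 3.29 ± 0.406 CPM with IL-4 (SD, n = 3 each). Many factors besides activin drive these genes, and a part of activin in their levels was not tested.

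**Figure D4:**
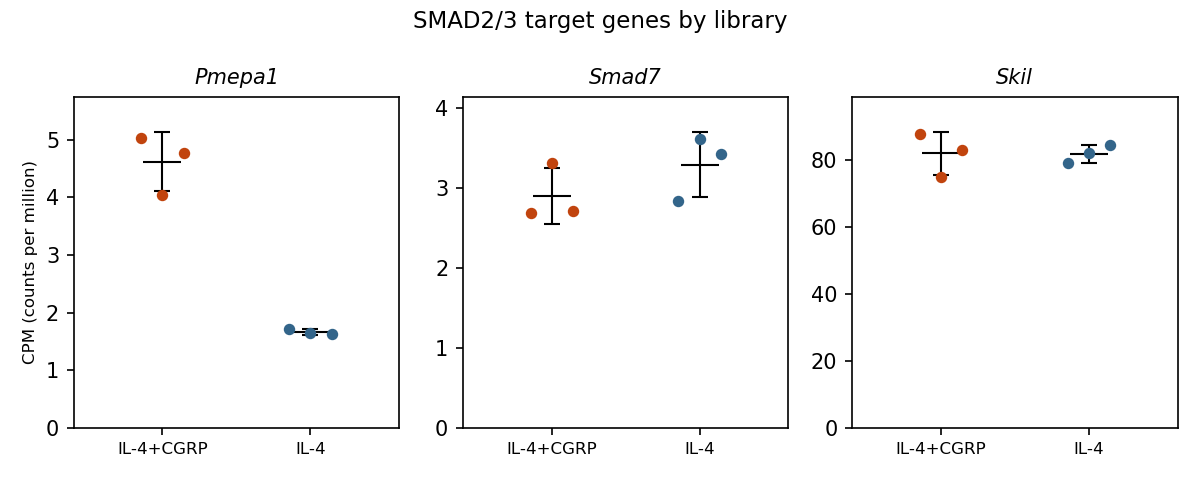
CPM of 3 SMAD2/3 target genes by library (IL-4+CGRP left, IL-4 right; axes from 0), with mean and SD (n = 3). The Pmepa1 groups are separate, at 4.04 to 5.03 CPM with IL-4+CGRP and 1.63 to 1.72 CPM with IL-4, while the groups of Smad7 and Skil overlap. Skil was picked after its value was seen. Some targets that are not drawn, such as Ccn2 and Tgfbi, also have groups that do not overlap, as have 21.0% of all tested genes.

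In human macrophages, activin A is made by the type grown in GM-CSF and is known to favour that type's genes over those of the M-CSF type. Of the 3 tested mouse counterparts of GM-CSF type genes, 1 rose and 2 fell, where 2.32% of all tested genes were called higher and 1.54% lower. Mmp12, macrophage elastase, fell to 103 ± 0.491 CPM with IL-4+CGRP, against 139 ± 3.93 CPM with IL-4 (SD, n = 3 each; edgeR adjusted p = 5.9e-04). Ccr2, the receptor for the monocyte chemokine CCL2, fell to 26.6 ± 2.09 CPM, against 34.6 ± 1.79 CPM with IL-4 (SD, n = 3 each; edgeR adjusted p = 0.0179). Of 9 tested genes of the M-CSF type, edgeR called 4 higher and 0 lower, with a median log2 fold change of 0.34. Over all tested genes 2.32% were called higher, and the median was 0.00. The 5 that were not called had log2 fold changes of both signs. These were 0.45 for Serpinb2, 0.35 for Cd163, -0.04 for Il10, -0.06 for Igf1 and -0.15 for Folr2. DESeq2 and limma-voom each called 2 of the 9. The 4 edgeR calls included Stab1, a scavenger receptor (1.33-fold, edgeR adjusted p = 0.00137), and Maf, a transcription factor (1.26-fold, edgeR adjusted p = 0.0201). The others were Htr2b, a serotonin receptor (1.42-fold, edgeR adjusted p = 0.0385), and Slc40a1, the iron exporter ferroportin (1.20-fold, edgeR adjusted p = 0.0477). Of the 6 calls named here, those of Mmp12 and Stab1 held in every leave-one-out fit. Ccr2 was no longer called when any single IL-4 library or IL-4+CGRP replicate 1 was left out. Maf was no longer called on leaving out IL-4 replicate 2, IL-4 replicate 3 or IL-4+CGRP replicate 3. Htr2b and Slc40a1 were called in 1 leave-one-out fit each, that with IL-4+CGRP replicate 2 left out, and neither was called by DESeq2 or limma-voom. These lists were short and were chosen with earlier results known.

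The 5 genes whose log2 CPM over the 6 libraries followed Inhba most closely were Itgb7, mt-Co2, Pla2g7, Abcb1a and Tnc, with Pearson's r of 0.998 to 0.999. All 6 libraries belong to 2 groups, so r here mostly holds the difference between groups and is only a description. Itgb7 is an integrin beta chain, Pla2g7 a secreted phospholipase of platelet-activating factor, Abcb1a a drug efflux pump and Tnc the matrix protein tenascin C. Their fold changes were smaller than that of Inhba, at 1.73-fold, 1.85-fold, 1.97-fold and 1.38-fold. The mitochondrial gene mt-Co2 had 180, 186 and 181 counts with IL-4+CGRP and 0 in every IL-4 library. Counts of such genes are uncertain, as near-identical nuclear copies exist. The cause of the split between the groups was not tested.

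Stromal cells also express Inhba and the follistatins, so their markers were read beside it. The 8 fibroblast markers summed to 53.0 to 59.0 CPM with IL-4+CGRP and 47.4 to 50.9 CPM with IL-4, so the groups did not overlap, and of the 7 tested 0 were called by edgeR and 2 had an unadjusted p under 0.05. None of the 8 was at 0 in all libraries. Mast cell markers, 7 genes, summed to 5.83 to 6.77 CPM with IL-4+CGRP and 6.63 to 6.98 CPM with IL-4, which overlap, and Mcpt4 was at 0 throughout. The osteoclast list summed to 80.4 to 84.9 CPM with IL-4+CGRP and 98.3 to 103 CPM with IL-4, and Calcr was at 0. Most of that sum was Acp5, at 63.4 ± 2.65 CPM with IL-4+CGRP and 76.3 ± 1.32 CPM with IL-4 (SD, n = 3 each). Of its 4 tested genes 3 were called lower, where 1.54% of all tested genes were. The other, Ctsk, was not called and had a log2 fold change of 0.16. The dendritic cell list summed to 29.3 to 31.1 CPM with IL-4+CGRP and 21.8 to 25.0 CPM with IL-4. Most of this was Ccr7, at 27.5 ± 0.780 CPM with IL-4+CGRP and 19.9 ± 1.63 CPM with IL-4 (SD, n = 3 each). Siglech went the other way, at 0.638 ± 0.290 and 1.98 ± 0.495 CPM. Of 4 tested genes Ccr7 was called higher and Siglech lower, where 2.32% and 1.54% of all tested genes were. Sums of neutrophil markers (21.3 to 31.5 CPM with IL-4+CGRP and 21.2 to 30.6 CPM with IL-4) and of lymphocyte markers (18.0 to 21.1 and 20.8 to 22.0 CPM) overlapped between groups. The part of other cells in the Inhba difference was not tested. In these bulk samples a change in the number of expressing cells and a change in RNA per cell cannot be told apart.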

How the data were processed

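The 6 libraries are bulk RNA sequencing, 3 a group. The authors deposited estimated counts per gene, not normalized, with gene lengths and group means, and the means were not used. The submitters' processing notes name fastp, HISAT2, StringTie and mouse build GRCm39. Their versions, the annotation and the counting step are not stated. In each library 23.3% to 26.6% of non-zero values were not whole (tolerance 1e-06), and counts were rounded for testing.

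The filter filterByExpr (minimum count 10) kept 13260 genes with 99.9% of counts. The test was edgeR 4.0.16 in R 4.3.3: TMM scaling and a robust two-sided quasi-likelihood F test without covariates, adjusted by Benjamini-Hochberg over those genes. SEs were obtained from the log2 fold change and F, and intervals are 95%. TPM used the deposited lengths. Chi-square per degree of freedom between replicates was 2.98 to 20.2, above counting noise. The test treated each library as a separate sample, and this spread cannot tell separate cultures or animals from technical repeats. Alternatives were other scalings and filters, DESeq2 1.42.0, limma-voom 3.58.1, a replicate block and leaving out each library. The script was tested on simulated counts.

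Members, lists and motifs were chosen with earlier results of these data known. The genes named are all members, up to 4 called genes per list by smallest p (or the 2 of smallest p where none was called), Smad2, Smad3, Smad4, Smad7, Tgfbr1, Tgfbr2, Pmepa1, and the 5 genes most like Inhba with a mean log2 CPM of at least 1. Skil, Ski, Wwp1, Acvr1c, Inha and overlapping genes were named after their values were seen. So were Ccn2, Col1a1, Tgfbi, Tgif1, Serpinb2, Cd163, Il10, Igf1, Folr2, Acp5 and Ctsk. One called gene of the lists is counted but not reported here by name. Promoters and overlaps come from build GRCm38, with no coordinates carried between builds.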

Additional observations from a re-analysis of the deposited data

How the results depend on the processing

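The Inhba log2 fold change was 2.18 to 2.23 over the 15 alternative fits, and the count of called members, given as a description, was 1 in each. The Pmepa1 call held in all 15 (log2 fold changes of 1.40 to 1.56). Over all genes, 511 were called; with no count filter 1018 were called, and with the replicate block 262. Leaving out 1 library gave 222 to 1865, the highest without IL-4+CGRP replicate 2. The lists of ligands to targets and those of the human macrophage types together held 68 tested genes, each counted once. In the main fit 8 of these were called, where 3.85% of all tested genes were. All these lists were chosen with earlier results known, so nothing is read from this share. With no count filter 16 were called, and with the replicate block 3. Leaving out 1 library gave 3 to 17 such calls, the highest again without IL-4+CGRP replicate 2. Same-numbered libraries deviated from their group means with correlations of -0.188, -0.182 and 0.13, and IL-4+CGRP replicate 2 correlated best with IL-4 replicate 1. With 3 libraries a group these values cannot decide whether the replicate numbers pair the libraries, and the labels do not say. The block ended the Ccr2, Maf, Htr2b and Slc40a1 calls. The cause of these changes was not tested, and each leave-one-out fit also had 1 library fewer. Of the calls over all genes 60.1% were higher. This share was 71.2% with library totals alone and 49.1% without IL-4+CGRP replicate 2, where the calls were 915 higher and 950 lower, and 57.4% to 67.2% in the other fits. The Acvr2b log2 fold change was 0.52 to 0.79 over the 14 fits that tested it. Tgfbr2, not called, was called without IL-4+CGRP replicate 2, with no count filter and under both upper quartile and library-total scaling. Depth limits Fst, Fstl3 and Inhbb, for which a small change could not be seen.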
